A study of Sus scrofa with 80 samples.

Results

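The transcripts that code for the mitochondrial respiratory chain and its ATP synthase were followed across tissues and ages of the Göttingen minipig, a small breed of pig used in drug safety studies. The genes were taken by name alone, without regard to their levels. They comprise every gene on the array whose symbol starts with NDUFA, NDUFB, NDUFC, NDUFS or NDUFV and a number, is one of the SDH subunit symbols, or starts with UQCR, COX4 to COX8 or ATP5. This rule found 71 of the 23722 genes analysed. Of these, 31 belong to complex I, 3 to complex II, 6 to complex III, 15 to complex IV and 15 to complex V. The remaining gene, COX4NB, shares only its name with the chain, because it lies beside a COX4 gene and codes for a membrane protein of the endoplasmic reticulum. Subunits proper make up 65 of the 71, and the others besides COX4NB are the paralogs COX7A2L and NDUFA4L2, the factors ATP5S and ATP5SL and the read-through transcript NDUFC2-KCTD14. NDUFA4 and NDUFA4L2 were counted with complex IV, where the NDUFA4 protein is found. Some subunits, among them SDHA, COX4I1, COX4I2, COX6B2, COX8A, UQCRC2 and NDUFS4, were not among the symbols and were not analysed here. Others, such as UQCRB and NDUFC1, were listed by transcript accession only and were kept apart.

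The respiratory chain sits in the inner membrane of the mitochondrion. Complex I (NADH dehydrogenase) and complex II (succinate dehydrogenase, which is also an enzyme of the citric acid cycle) pass electrons to ubiquinone, complex III passes them on to cytochrome c, and complex IV (cytochrome c oxidase) hands them to oxygen. Complexes I, III and IV pump protons, and complex V (ATP synthase) uses the returning protons to make ATP. Several subunits of complex IV exist as isoforms from separate genes, such as a heart and muscle form of COX7A (COX7A1) beside a widely expressed form (COX7A2) and a testis form of COX7B (COX7B2) beside COX7B. Tubule cells of the kidney, neurons, hepatocytes and muscle fibres are known for their many mitochondria.

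Total RNA was hybridized to 80 custom one-colour Agilent arrays. To cover 7 tissues, samples were taken from a male and from a female pig at each of the ages of 1 week, 4 weeks, 2 months and 4 months, and from 1 male of 2 years. These were 3 brain regions (cerebellum, hypothalamus and cortex), the spleen, the kidney, the bone marrow and the liver. Testis was sampled at all 5 ages and ovary at the 4 younger ages, with 1 animal each. The kidney of the 2-year-old male was hybridized 8 times, and these technical repeats were averaged into 1 sample. The labels give no treatment other than killing by pentobarbital. A tissue and age is repeated only by its male and its female, so p-values measure the spread between these few samples. The labels do not say which tissues came from the same animal, and the 2-year-old male was reared at another site and on another diet for most of its life. All 16 arrays of 2-year tissue lie on 2 slides of their own, so that this age and the slide cannot be told apart, whereas 9 slides mix the 4 younger ages.

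Levels are given as normalized intensity on the log2 scale, on which a difference of 1 is a 2-fold change. Levels of different genes come from different probes and are not compared with each other. The median raw signal of an array lay between 27 and 89 against 17 to 25 for its negative control spots, so dim genes carry little information. The labelled tissues showed their own marker genes. Mean log2 levels of hepatocyte markers were 9.63 in liver and at most 6.16 elsewhere, those of proximal tubule markers 7.25 in kidney and at most 3.66 elsewhere, and those of neuron markers 8.35 to 9.36 in the 3 brain regions and at most 4.53 elsewhere. Neutrophil markers were highest in bone marrow at 11.54, B cell markers in spleen at 9.24, Leydig cell markers in testis at 10.54 and granulosa cell markers in ovary at 5.68. Of 3 granulosa markers 2 were measured, and their lead in ovary rested on the older samples. Their summed level on the log2 scale was 7.97 to 11.59 in ovary at 2 and 4 months. At 1 and 4 weeks it was 6.12 to 6.13 in ovary, below the 7.67 to 9.035 of testis.

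Of the 71 genes, 56 were well above background on all 80 arrays, and none had a saturated spot. The other 15 were COX7B2 and COX8C, which were detected mainly in the gonads, and ATP5G3, ATP5S, COX4NB, COX6C, NDUFA4, NDUFA10, NDUFB6, NDUFC2, NDUFC2-KCTD14, NDUFS1, SDHC, UQCR10 and UQCR11. UQCR10, a small subunit of complex III, was well above background on 0 of the 80 arrays and UQCR11 on 1. For 14 genes at least 1 probe is named on the array as cross-hybridizing, and for 12 of them all probes are, so that signal from related sequences cannot be told apart from their own. These 12 are ATP5E, ATP5F1, ATP5G2, ATP5J2, COX5A, COX7A1, NDUFA7, NDUFA8, NDUFA12, NDUFA13, NDUFC2-KCTD14 and NDUFS6. ATP5D and NDUFV3 have probes of both kinds.

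To summarize the chain in a sample, each gene was centred on its mean over the 56 samples of the 7 tissues that have both sexes up to 4 months, and the median over the 71 genes was taken. These medians were highest in kidney, at 0.39 ± 0.18 (SD, n = 8), followed by hypothalamus at 0.24 ± 0.04, cortex at 0.12 ± 0.07, cerebellum at 0.03 ± 0.08 and liver at −0.08 ± 0.07. They were lowest in bone marrow at −0.38 ± 0.22 and spleen at −0.42 ± 0.17. Each tissue overlapped with its neighbours in this order. Both kidney samples of 2 months, at 0.10 and 0.17, lay below the other 6 kidney samples, which ran from 0.28 to 0.62. Kidney and hypothalamus did not overlap with bone marrow or spleen, whose highest samples were at 0 and −0.12. In tissue RNA, fewer cells of a type and less RNA of a gene per cell cannot be told apart.

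**Figure D1:**
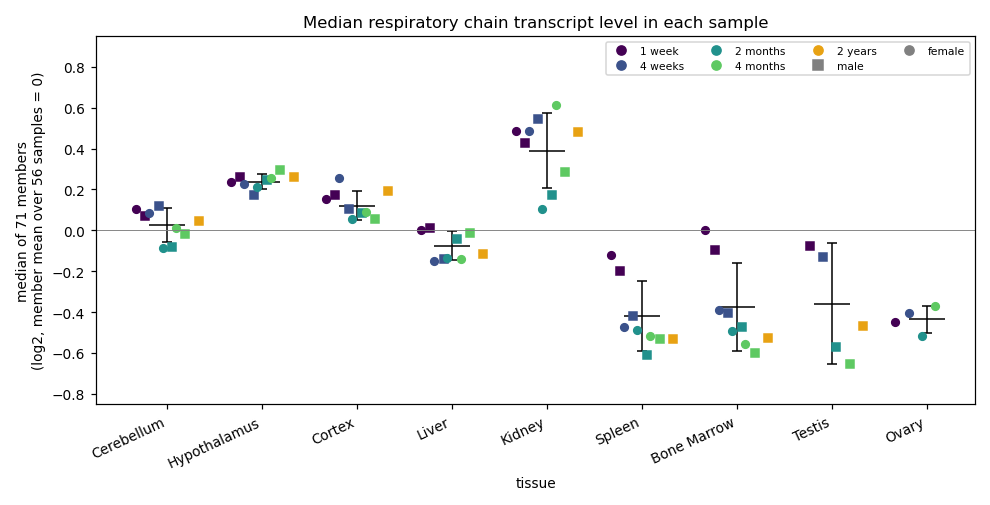
Median log2 level of the 71 respiratory chain genes in each tissue sample, each gene centred on its mean over the 56 samples of 7 tissues up to 4 months. Points are samples, coloured by age, circles female and squares male; horizontal lines and bars are the mean and SD of the samples up to 4 months (n = 8, testis and ovary 4). Kidney lies highest except for its 2-month samples and the 4-month male, and ovary, the older testis samples and the spleen and bone marrow samples after 1 week lie lowest.

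Each tissue was then compared with the mean of the other 6 in limma, with age and sex as covariates, and genes with a Benjamini-Hochberg adjusted p under 0.05 over all genes were called. In kidney, 50 of the 71 were higher and 6 lower, with 26.2% of all genes higher and 33.4% lower. The median difference of the 71 was 0.48 against −0.07 for all genes. All complexes took part, with 23 of 31 genes of complex I, 2 of 3 of complex II, 4 of 6 of complex III, 8 of 15 of complex IV and 13 of 15 of complex V higher. Kidney was the tissue of highest mean level for 35 of the 71 genes.

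Hypothalamus had 46 genes higher and 6 lower, against 25.6% and 37.8% of all genes, and a median difference of 0.31. Under median scaling 31 were higher and 11 lower. Cortex had 30 higher and 13 lower, against 26.1% and 38.8%, with a median of 0.13, and 22 higher and 15 lower under median scaling. Cerebellum had 21 higher and 14 lower, against 29.3% and 34.5%, with a median of 0.04 that turned to −0.08 under median scaling of the arrays, where 13 were higher and 20 lower. In none of the 3 brain regions was a gene of complex II called higher.

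In spleen 3 genes were higher and 52 lower, against 31.5% and 30.3% of all genes, with a median difference of −0.49. Bone marrow was similar in its counts, with 4 higher and 49 lower against 33.3% and 33.9%, and a median of −0.44. Complex I was lower in spleen for 28 of its 31 genes and in bone marrow for 22. Spleen was the tissue of lowest mean level for 25 genes and bone marrow for 22.

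In liver 13 genes were higher and 27 lower, against 29.6% and 36.6% of all genes, with a median of −0.08. This direction depended on the scaling. With median scaling the median was 0.20 with 29 genes higher and 16 lower, and with the scanner's processed signal it was 0.24 with 39 higher and 15 lower. The median over all genes shifted with it, from −0.05 to 0.09 and 0.10. The 3 genes of complex II were all higher in liver in the test as made.

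**Figure D2:**
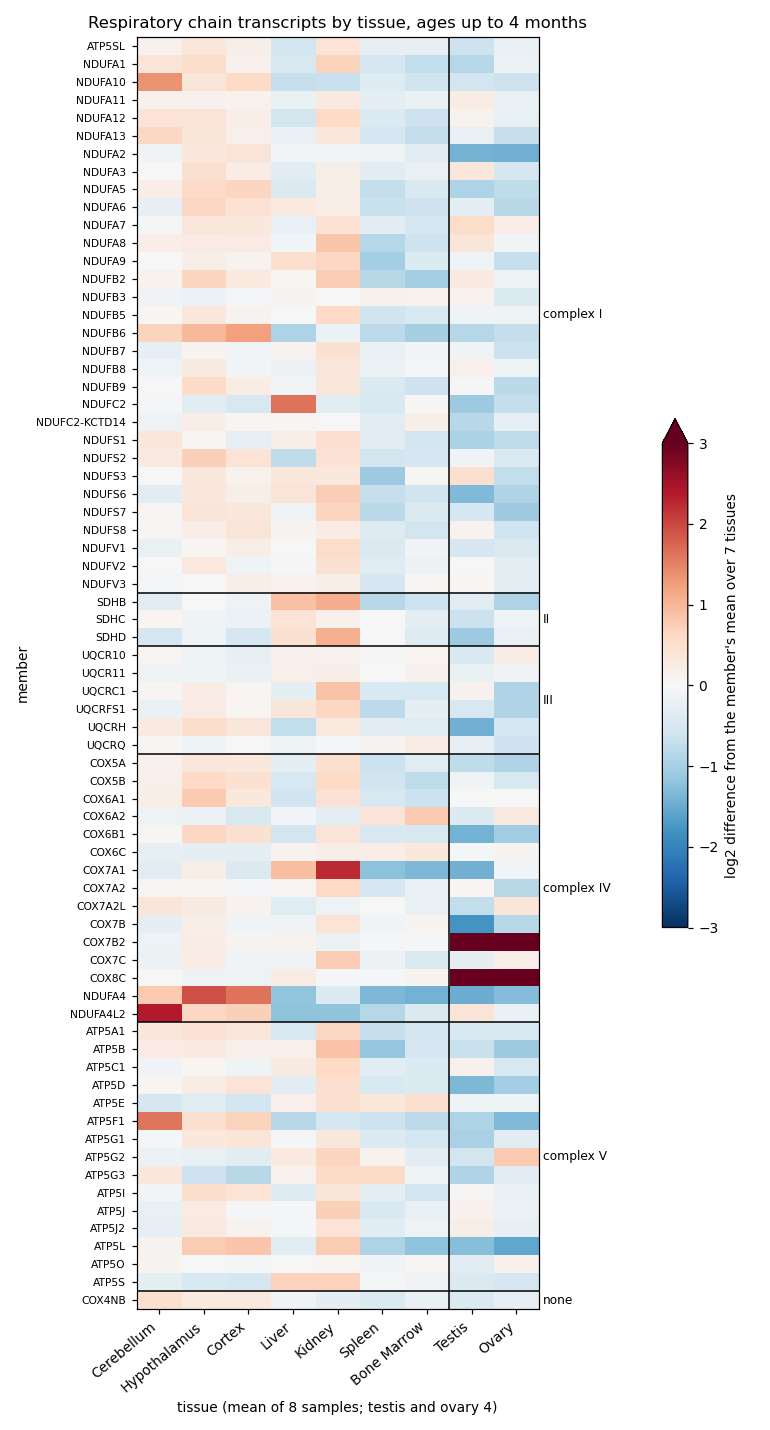
Mean log2 level of each gene in each tissue (columns) at ages up to 4 months, as the difference from that gene's mean over the 7 tissues left of the vertical line, with genes grouped by complex. The scale ends at 3, and COX7B2 and COX8C exceed it in testis and ovary; the kidney column is mostly warm and the spleen and bone marrow columns mostly cool.

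The genes differed in how far they moved between tissues. The range between the highest and lowest of the 7 tissue means had a median of 1.18 over the 71 genes and 1.29 over all genes. Among the 56 genes detected on all arrays it was widest for NDUFA4L2 at 3.59, COX7A1 at 3.58 and ATP5F1 at 2.44. Among them it was narrowest for ATP5O, a stalk subunit of ATP synthase, at 0.20, and for NDUFB3 at 0.31. As a description over the 56 samples, the genes whose levels followed the median of the other members most closely were NDUFA8 (Pearson r = 0.955), NDUFB5 (0.946), NDUFB2 (0.937), NDUFS7 (0.935) and COX5A (0.919). The samples share tissues and a scale, so no test was made of these correlations.

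Complex II links the chain with the citric acid cycle. SDHB, its iron-sulfur subunit, ran from 9.08 to 10.14 in kidney with a median of 9.82 and from 9.40 to 9.73 in liver with a median of 9.53. In the other 5 tissues no sample exceeded 8.82, so both kidney and liver stood apart from them. Against the other 6 tissues SDHB was higher by 1.27 in kidney (SE 0.08, adjusted p = 1.87e-19) and by 1.03 in liver (SE 0.08, adjusted p = 3.13e-16). SDHD, a membrane anchor, ran from 11.61 to 12.65 in kidney, with a median of 12.47, and was higher by 1.25 there (SE 0.10, adjusted p = 8.91e-16). It was higher by 0.53 in liver, and it fell by 0.60 in both cerebellum and cortex relative to the other tissues. SDHC, the other anchor, was dim, with tissue means between 4.06 in bone marrow and 4.78 in liver. It was higher in liver by 0.49 (SE 0.09, adjusted p = 2.8e-06) and did not pass the test in kidney, at 0.16 (adjusted p = 0.109).

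Among the isoforms of complex IV, COX7A1, whose probes are all named as cross-hybridizing, had the widest range. In kidney it ran from 12.92 to 13.75 with a median of 13.31, in liver from 11.62 to 12.61 with a median of 11.98, in spleen from 8.92 to 10.52 and in bone marrow from 8.41 to 11.62. All 8 kidney samples lay above every sample of the other 6 tissues. The difference was 2.61 in kidney (SE 0.20, adjusted p = 2.27e-16), 1.05 in liver (SE 0.20, adjusted p = 1.07e-05), −1.44 in spleen and −1.57 in bone marrow. COX7A2, the widely expressed form, was higher in kidney by 0.71 (SE 0.08, adjusted p = 1.47e-10), ran there from 9.77 to 10.45, and did not pass the test in liver or any brain region. COX6A1, the liver form of COX6A that most tissues use, was highest in hypothalamus, from 14.20 to 14.73, where it was higher by 0.92 (SE 0.06, adjusted p = 1.32e-18). Its differences in liver of −0.71 and in cerebellum of 0.22 changed sign under other scalings.

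COX6A2, the heart and muscle form of COX6A, was higher in bone marrow by 0.92 (SE 0.24, adjusted p = 0.000858), and this rested on the youngest animals. The 1-week female and male had 12.73 and 12.61, and the 6 later samples lay between 8.76 and 9.86. Without the 1-week age the difference was 0.02 with an adjusted p of 0.853. COX7A1 in bone marrow had the same shape, with 11.62 and 11.41 at 1 week and between 8.41 and 9.62 in the later samples. Of a list of 8 skeletal muscle markers 3 were measured, and their summed level on the log2 scale was 11.74 and 11.63 in the 1-week marrow samples and between 4.99 and 6.58 in the samples of 4 weeks to 4 months. The part of muscle RNA in the bone marrow values was not tested.

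NDUFA4, a subunit of complex IV, was a transcript of the brain samples. It ran from 6.02 to 6.78 in hypothalamus, from 5.52 to 6.30 in cortex and from 4.77 to 5.82 in cerebellum. It was well above background in 5 of 8 kidney samples, between 3.58 and 4.34, and in 0 of 8 samples each of liver, spleen and bone marrow. Thus the 3 brain regions lay above all other tissues. NDUFA4 was at least 4.48-fold higher in hypothalamus (adjusted p = 4.63e-25) and at least 3.49-fold higher in cortex (adjusted p = 4.81e-22) than in the other tissues, where it was well above background in 21 of 48 samples. It was at least 2.15-fold lower in liver, 2.74-fold in spleen and 2.73-fold in bone marrow than the mean of the other tissues. For such a bound the level of each sample without signal is replaced by the lowest signal that counts as well above background on its array, where that is higher.

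NDUFA4L2, the paralog of NDUFA4 known for its rise under low oxygen, had another order. It ran from 8.62 to 9.24 in cerebellum, all 8 samples above the 7.93 that was the highest value in the other 6 tissues. Cerebellum exceeded them by 2.77 (SE 0.18, adjusted p = 1.53e-19). Cortex and hypothalamus followed with means of 7.23 ± 0.27 and 7.15 ± 0.36 (SD, n = 8), which did not differ beyond their spread. Kidney, at 5.33 ± 0.72, and liver, at 5.31 ± 0.42, were lowest, with differences of −1.39 and −1.42.

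**Figure D3:**
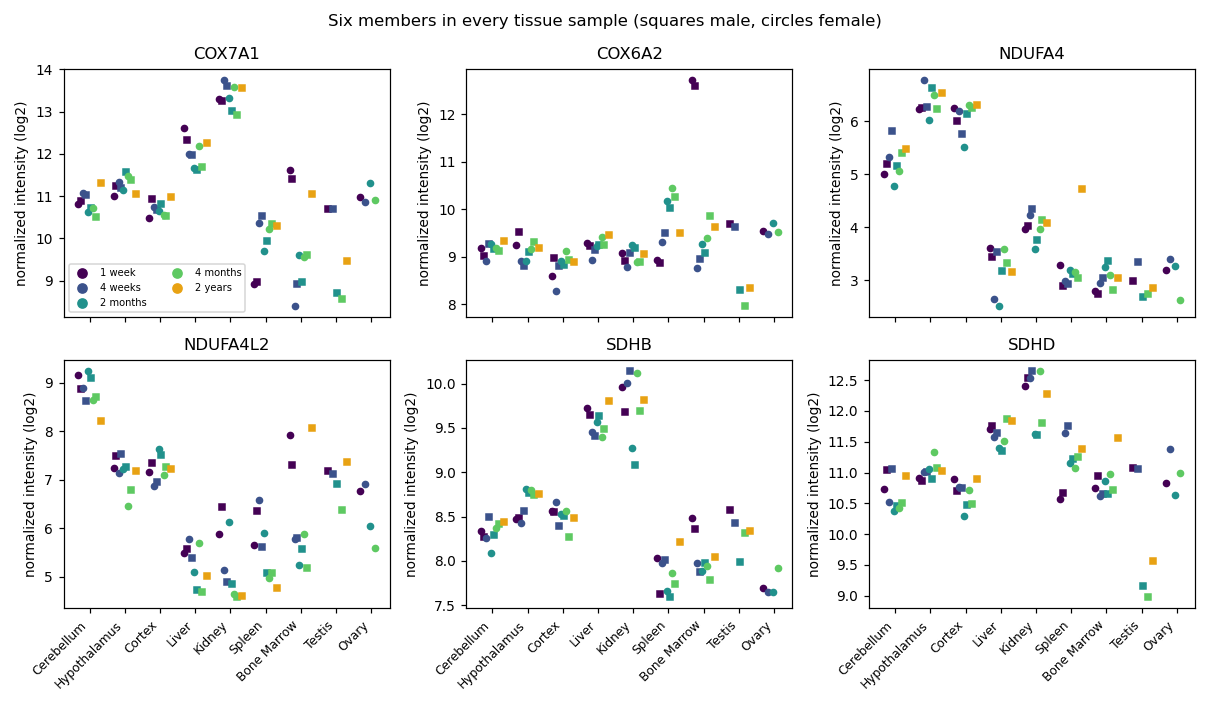
Normalized intensity (log2) of COX7A1, COX6A2, NDUFA4, NDUFA4L2, SDHB and SDHD in every tissue sample, coloured by age, circles female and squares male. COX7A1 is highest in kidney, COX6A2 stands out in the 2 bone marrow samples of 1 week, NDUFA4 is high in the 3 brain regions and NDUFA4L2 in cerebellum, and SDHB and SDHD are high in kidney and liver.

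In complex I, NDUFA10, an accessory subunit, was at least 2.91-fold higher in cerebellum (adjusted p = 1.87e-15), where it ran from 4.88 to 6.17. It was well above background in all 24 brain samples and in none of the other 32 samples of the 7 tissues. NDUFB6, another accessory subunit, was at least 2.58-fold higher in cortex (adjusted p = 1.12e-17) and was not well above background in any liver, spleen or bone marrow sample. NDUFA8 was higher in kidney by 0.98 (SE 0.09, adjusted p = 1.59e-14) and fell by 1.01 in spleen. NDUFS3, a core subunit of the arm that projects into the matrix, fell by 1.27 in spleen (SE 0.11, adjusted p = 7.83e-15). NDUFC2 was at least 3.38-fold higher in liver (adjusted p = 1.52e-12), with 6 of the 48 samples of other tissues well above background, but only 1 of its 2 probes gave this difference. That probe ran from 6.28 to 9.13 in liver, and the other stayed between 2.29 and 2.98.

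In complex III, UQCRC1, a core subunit, ran from 12.99 to 13.48 in kidney, above the highest value of 12.83 in the other tissues, and exceeded them by 1.01 (SE 0.07, adjusted p = 2.42e-18). In complex V, ATP5B, the catalytic beta subunit, was higher in kidney by 1.00 (SE 0.10, adjusted p = 1.36e-12), from 9.42 to 10.28. It fell by 1.36 in spleen (SE 0.10, adjusted p = 3.53e-17), from 7.70 to 8.40. ATP5F1, the b subunit of the stator, was higher in cerebellum by 1.87 (SE 0.10, adjusted p = 3.16e-22). Its probes, like those of ATP5E, are all named as cross-hybridizing. ATP5E, the small epsilon subunit, was higher in kidney like most of the chain, by 0.57 (SE 0.06, adjusted p = 6.82e-11), but also higher in bone marrow by 0.57 (SE 0.06, adjusted p = 5.35e-11) and in spleen by 0.38, and it fell by 0.67 in cortex.

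The c subunit of the ATP synthase ring is coded by 3 genes that give the same mature protein. ATP5G1 was higher in cortex by 0.43, in kidney by 0.41 and in hypothalamus by 0.36. ATP5G2 was higher in kidney by 0.74 and in liver by 0.35 and fell by 0.37 in cortex. All its probes are named as cross-hybridizing, so that signal from related sequences cannot be told apart from its own. ATP5G3, well above background on 73 of the 80 arrays, was higher in kidney by 0.66 and in spleen by 0.66 and fell by 0.96 in cortex and by 0.71 in hypothalamus. All 3 were thus higher in kidney, whereas only ATP5G1 of the 3 was higher in cortex.

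Genes listed on the array by transcript accession could be matched to RefSeq symbols in 3019 of 10818 cases, and 12 of these have a symbol that fits the same names. They were kept apart from the 71. Of the 12, 6 were higher in kidney and 1 lower, with 26.2% of all genes higher and 33.4% lower. A second COX7A1 transcript exceeded the other tissues in kidney by 2.62 (SE 0.20, adjusted p = 1.31e-16), and NDUFC1, a small complex I subunit, by 0.87 (adjusted p = 3.59e-13). A second ATP5E transcript was not called in kidney, at 0.16 (adjusted p = 0.192), unlike the ATP5E of the 71. Its differences were 1.34 in bone marrow, 0.59 in liver and −1.35 in cortex.

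Related genes were followed in kidney from lists of names, where 26.2% of all genes were higher and 33.4% lower. Of 13 citric acid cycle genes measured, 9 were higher and 1 lower, among them FH (fumarase) by 1.04. All 5 electron carrier genes measured were higher, with CYC1, the cytochrome subunit of complex III, at 0.88. Of 19 assembly factors 10 were higher and 4 lower, and of 8 outer membrane and import genes 4 were higher and 3 lower. Of 24 genes of glycolysis and lactate metabolism 6 were higher and 7 lower. Of 11 regulators of mitochondrial gene expression 6 were higher and 2 lower, among them the nuclear receptors ESRRG by 4.59 and ESRRB by 3.30, and NRF1 fell by 0.65.

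Changes with age were tested in each tissue by comparing the 4 samples of 2 and 4 months with the 4 samples of 1 and 4 weeks. The spread within a group thus holds the difference between its ages as well as that between male and female. Few of the 71 genes passed. Cerebellum, hypothalamus, liver and bone marrow had 0 calls in limma, with 24, 3, 8 and 21 genes at an unadjusted p under 0.05. Of all genes, 2.28%, 0%, 1.81% and 0.733% were called there. The median difference of the 71 was −0.15 in cerebellum, 0.07 in hypothalamus, −0.04 in liver and −0.30 in bone marrow. In bone marrow 59 of the 71 differences were negative, with a median over all genes of 0.01. The sample medians of marrow were 0 and −0.10 at 1 week and between −0.60 and −0.39 in the 6 later samples up to 4 months. In the same contrast the skeletal muscle markers had a median of −3.03, with 0 of 3 called, and both adipocyte markers measured, of a list of 4, were called higher, their summed level lying between 5.09 and 5.26 in young and between 6.05 and 8.02 in older marrow. Their part in the marrow values was not tested. A single fit over all 7 tissues, which pools their spread, called 21 genes in bone marrow and 5 in cerebellum. In the separate fits, leaving out the 4-week female gave 4 calls in cerebellum and leaving out the 2-month male gave 1 in bone marrow.

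In cortex 2 genes were called, against 1.71% of all genes. ATP5F1 had 6.93, 7.09, 7.32 and 7.05 in the young samples and 7.69, 7.58, 7.62 and 7.58 in the older ones, which did not overlap, and rose by 0.52 (SE 0.10, adjusted p = 0.0422). NDUFA13, a subunit of complex I also known as GRIM-19, rose by 0.60 (SE 0.11, adjusted p = 0.0379), from 12.10 ± 0.20 to 12.69 ± 0.04 (SD, n = 4). All probes of both genes are named as cross-hybridizing, so neither could be tested without such probes. Each of these calls was lost under 12 of 19 alternatives. Leaving out the 1-week female, either 2-month sample, the 4-week male or the 4-month male left 0 calls, and leaving out the 1-week male left 1. Without the 4-month female both calls were lost and 2 other genes were called lower.

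In kidney 2 genes were called, against 8.42% of all genes. ATP5L, a subunit of the ATP synthase membrane part, had 7.29, 7.09, 7.53 and 7.04 in young and 7.59, 7.89, 7.88 and 8.19 in older kidney, a rise of 0.65 (SE 0.17, adjusted p = 0.0427). ATP5G3 had 5.67, 5.80, 5.99 and 5.93 in young and 5.09, 5.33, 5.49 and 4.87 in older kidney, and fell by 0.65 (SE 0.16, adjusted p = 0.0378). The groups did not overlap for either gene, and the 2 genes of the same complex moved in opposite directions. The median of the 71 was −0.20, and the sample medians of both sexes at 2 months and of the 4-month male lay below those of the 4 young samples. Without the 4-month female, whose median was the highest of all kidney samples, 23 genes were called, 21 of them lower, with a median of −0.30. Without either 1-week sample or any other male 0 were called, and without the 4-week or the 2-month female 1. ATP5L was lost under 9 and ATP5G3 under 8 of 20 alternatives. The summed level of proximal tubule markers lay between 11.78 and 12.07 at 2 months and between 11.88 and 12.71 in the other samples up to 4 months, and 0 of 5 were called. That of thick limb and distal tubule markers lay between 11.88 and 11.98 in the young and between 12.26 and 12.91 in the older samples, which did not overlap, and 2 of 3 were called higher, with a median difference of 0.65. The part of the sampled kidney region in these values was not tested.

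In spleen 3 genes were called, against 3.11% of all genes. The median difference of the 71 was −0.21, with 54 negative, and the median over all genes was 0.03. The sample medians were −0.12 and −0.20 at 1 week and between −0.61 and −0.42 in the later samples up to 4 months. COX6A2 had 8.94, 8.87, 9.31 and 9.50 in young and 10.17, 10.03, 10.44 and 10.27 in older spleen, and rose by 1.08 (SE 0.18, adjusted p = 0.0202). NDUFS3 had 7.95, 7.60, 7.31 and 7.49 in young and 6.62, 6.23, 6.70 and 6.68 in older spleen, and fell by 1.03 (SE 0.18, adjusted p = 0.0242). COX5A, a subunit of complex IV, fell by 0.59 (SE 0.12, adjusted p = 0.0371). None of the 3 overlapped between the age groups. Markers of erythroid cells fell in the same contrast, with 2 of 7 called lower and a median difference of −2.13, although their summed level, which haemoglobin dominates, stayed between 15.95 and 16.25. Their part in the spleen values was not tested. COX6A2 was lost under 9 and NDUFS3 under 6 of 20 alternatives, and COX5A under 8 of 19. Without the 1-week male or any sample of 2 or 4 months 0 genes were called, and without the 1-week female 1.

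**Figure D4:**
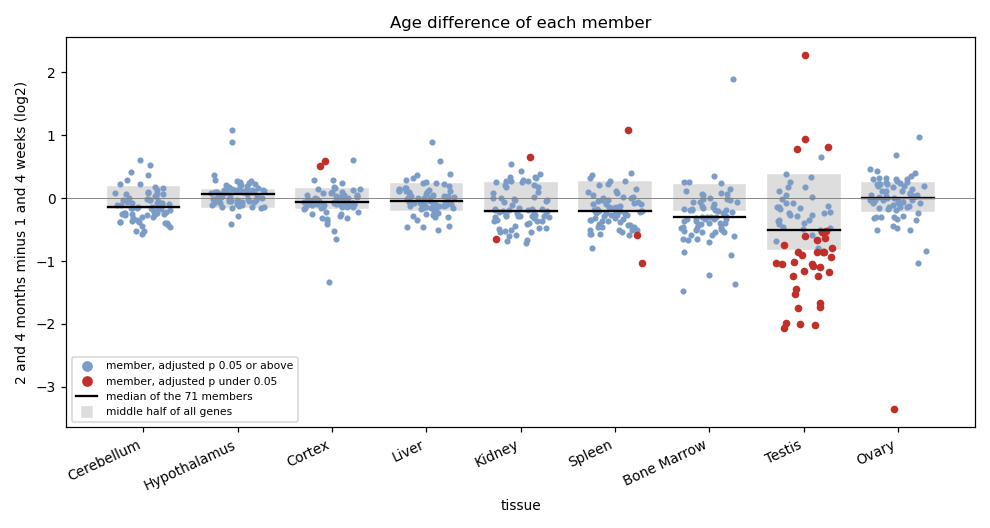
Difference of the samples of 2 and 4 months from those of 1 and 4 weeks (log2) for each of the 71 genes in each tissue; red points have an adjusted p under 0.05 in limma, black lines are the median of the 71 and grey boxes the range between the quartiles of all genes. Most points lie near 0 outside testis, where 32 genes are lower and 4 higher.

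Whether the age difference was equal in the 7 tissues was tested directly with a moderated F test. It was unequal for 11 of the 71 genes, against 18.5% of all genes, and for 22 when the 4-month female kidney was left out. COX5A was lost under 45 of 65 alternatives, NDUFA6 under 7 of 66 and NDUFS8 under 6. NDUFC2 had the smallest p (adjusted p = 0.000533), with differences of 1.89 in bone marrow and 0.90 in liver and between −0.14 and 0.21 in the other 5 tissues. Neither bone marrow nor liver passed the test by itself, and both differences came from 1 of the 2 probes. NDUFS3 (adjusted p = 0.00514) was at −0.66 in bone marrow, −0.71 in kidney and −1.03 in spleen, where alone it was called by itself. NDUFA8 (adjusted p = 0.00768) was at −0.66, −0.44 and −0.53 in these tissues and at 0.12 in liver, without a call in any of them. All its probes are named as cross-hybridizing. A second NDUFA8 transcript, named by accession, did not pass this F test (adjusted p = 0.108) and was at −0.08 in liver. NDUFB7 (adjusted p = 0.0107) was at −0.60 in bone marrow and 0.21 in kidney, and NDUFV2 (adjusted p = 0.019) at −0.54 in bone marrow and −0.51 in spleen.

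Testis had the most calls with age, but from a pooled fit, whereas the 7 tissues above had separate fits. One fit over those 7 tissues called 1 gene higher and 20 lower in bone marrow, 2 and 14 in kidney and 0 and 16 in spleen. Contrasts within testis and ovary were taken from a fit over 64 samples in 18 groups, in which the 2 young and 2 older samples of a gonad are assumed to vary like those of the other tissues. Of the 71 genes 32 fell and 4 rose, against 28.9% and 18.3% of all genes, and the median was −0.50 against −0.20 for all genes. With an offset of 50 these medians were −0.28 and −0.04, with 31 genes lower and 4 higher. By complex, 14 of 31 genes of complex I, 1 of 3 of complex II, 1 of 6 of complex III, 8 of 15 of complex IV and 8 of 15 of complex V fell. In all, 29 to 33 genes were called when single testis samples were left out. The change lay between 4 weeks and 2 months, where 17 genes were at least 2-fold lower and 1 higher, against 17.9% and 12.9% of all genes. From 1 to 4 weeks 0 were lower and 2 higher by that much, against 3.54% and 4.25% of all genes, and from 2 to 4 months 0 were lower and 1 higher, against 2.3% each way.

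The 3 genes with the largest falls were COX7A1, ATP5G2 and SDHD, of complexes IV, V and II. All probes of COX7A1 and ATP5G2 are named as cross-hybridizing. ATP5G2 had 12.74 and 12.76 in the testis of 1 and 4 weeks and 10.94 and 10.52 at 2 and 4 months, and fell by 2.02 (SE 0.18, adjusted p = 4.87e-14). ATP5G1 fell by 1.75 (SE 0.22, adjusted p = 1.49e-09). COX7A1 went from 10.70 at both young ages to 8.71 and 8.57, and fell by 2.06 (SE 0.50, adjusted p = 0.000548). COX7B went from 11.69 and 11.70 to 9.79 and 9.62 and fell by 1.99 (SE 0.22, adjusted p = 4.13e-11), and COX6B1, which joins the monomers of complex IV, fell by 1.73 (SE 0.18, adjusted p = 1.1e-11). In complex II, SDHD went from 11.08 and 11.06 to 9.15 and 8.98 and fell by 2.00 (SE 0.25, adjusted p = 2.48e-09). SDHB did not pass, with 8.58 and 8.43 in young and 7.98 and 8.32 in older testis. In complex I, NDUFS6 fell by 1.67 (SE 0.18, adjusted p = 3.04e-11), and NDUFS1, the largest core subunit, fell at least 2.35-fold, since it was not well above background in older testis. NDUFV3 fell by 0.54 as the mean of 4 probes, which disagreed, from −1.57 to 0.50.

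The 4 genes that rose in testis were COX7B2, COX7A2, NDUFB3 and ATP5F1. COX7B2, the testis form of COX7B, had 5.34 and 7.40 in young and 8.99 and 8.30 in older testis, and rose by 2.28 (SE 0.49, adjusted p = 9.96e-05). Without the 1-week testis its rise was 1.25 and was not called (adjusted p = 0.0678). COX7A2 had 9.15 and 9.20 in young and 10.10 and 10.13 in older testis, and rose by 0.94 (SE 0.20, adjusted p = 7.65e-05). Within COX7A and COX7B, therefore, 1 form fell and the other rose. NDUFB3, an accessory subunit of complex I, rose by 0.81 and ATP5F1 by 0.78, the latter not called without the 4-month testis (0.70, adjusted p = 0.0567).

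In the testis of 2 years, with 1 sample, COX7B lay at 10.23, ATP5G2 at 10.85, SDHD at 9.56, COX7A2 at 9.99 and COX7B2 at 8.08. All 5 lay nearer to their levels at 2 and 4 months than to those at 1 week. With age in testis, 2 of 2 Sertoli cell markers and 1 of 3 Leydig cell markers fell, against 28.9% of all genes. Spermatid markers moved with the change. The summed level of the 4 measured, of a list of 5, was 7.27 and 7.12 at 1 and 4 weeks and 17.10, 17.17 and 17.11 at 2 months, 4 months and 2 years, and PRM1, PRM2 and ODF1 were not above background before 2 months. The part of the share of germ cells in the testis values was not tested.

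Other genes of energy metabolism were taken from lists of names. With age in testis, 28.9% of all genes fell and 18.3% rose. In testis 8 of 13 citric acid cycle genes fell and 0 rose, among them CS (citrate synthase) by 1.56, and 4 of 5 electron carrier genes fell, among them ETFDH by 1.60. Of 19 assembly factors 7 fell and 2 rose, and of 11 regulators 4 fell and 1, TFAM, rose by 1.03. Of 8 outer membrane and import genes 5 fell, among them VDAC1 by 2.36, and VDAC3 rose by 2.01. Of 24 genes of glycolysis and lactate metabolism 8 fell and 6 rose. Those that rose include the germ cell forms LDHC by 5.43 and PGK2 by 2.11, and PGAM2 by 6.54, whereas LDHB fell by 1.73 and PGAM1 by 2.03. PDHA2, another germ cell form on the list, was not called in limma, at 0.39 (adjusted p = 0.351). Of the 12 genes named by accession 8 fell and 2 rose, the second COX7A1 transcript by −2.13 and UQCRB, a complex III subunit, by 1.07.

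COX8C, a form of COX8 described in testis, was followed with COX7B2 in both gonads. It had 10.58, 12.58, 12.46, 12.00 and 11.71 in testis from 1 week to 2 years. In ovary it had 10.65, 10.62, 8.71 and 5.85 from 1 week to 4 months. In the 56 samples of the other 7 tissues it lay between 0.95 and 3.02 and was well above background in 1. It was thus present in both gonads at 1 week, and at 4 months it was far lower in ovary than in testis. COX7B2 had 7.43, 5.35, 6.76 and 4.35 in ovary and was well above background in 0 of the 56 other samples. Over the 4 samples up to 4 months its mean was at least 20.7-fold higher in testis and at least 7.15-fold higher in ovary than in those 56.

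In ovary COX8C was the only gene of the 71 called with age, with a fall of 3.36 (SE 0.50, adjusted p = 6.6e-06), against 2.6% of all genes called. Leaving out the 2-month ovary gave 5 calls. The median of the 71 in ovary was 0.01, and it was 0.18 under median scaling, where the median of all genes was 0.16.

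**Figure D5:**
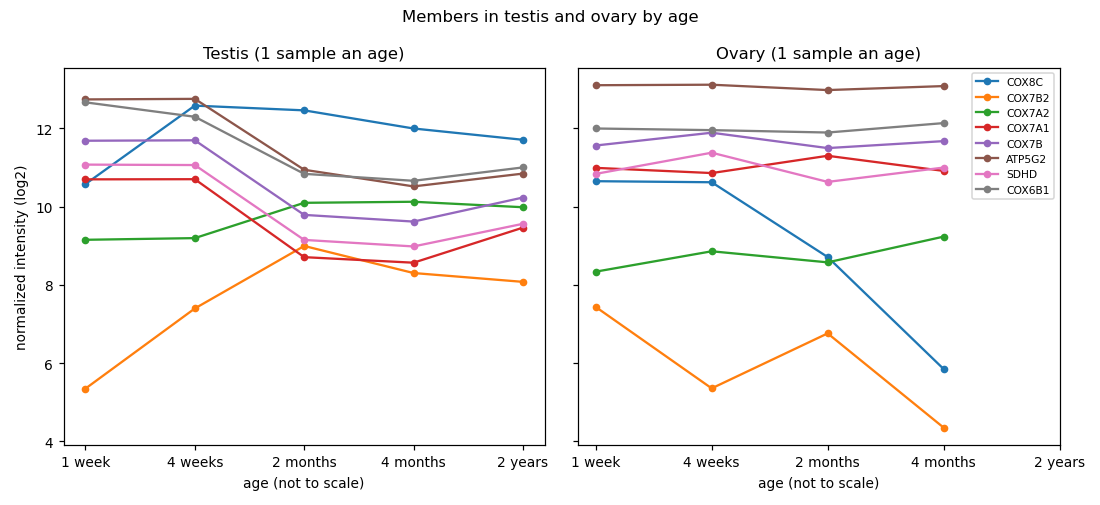
Normalized intensity (log2) of 8 respiratory chain genes in testis and ovary by age, 1 sample an age, with the ages drawn at equal steps. In testis COX7A1, COX7B, ATP5G2, SDHD and COX6B1 drop and COX7A2 rises between 4 weeks and 2 months. COX7B2 rises in testis from 1 week to 4 weeks and again to 2 months. In ovary COX8C falls after 4 weeks.

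Males and females were compared within 28 pairs, each from 1 tissue at 1 age. SDHC was the only gene of the 71 called in limma, against 0.253% of all genes, and 6 had an unadjusted p under 0.05. It had 4.20 ± 0.30 in males and 4.52 ± 0.32 in females (SD, n = 28) and fell by 0.32 in males (SE 0.06, adjusted p = 0.00301), lower in the male in 24 of 28 pairs. The mean difference was −0.56 in liver and −0.56 in spleen and between −0.33 and −0.13 in the other 5 tissues. Without the 1-week age it was −0.26 and was not called (adjusted p = 0.0688). Of the 12 genes named by accession 1 was called, a second ATP5E transcript, lower in males by 0.21 (SE 0.05, adjusted p = 0.0461). The ATP5E of the 71 was at 0.02 (adjusted p = 0.933). Since each age and sex may be a single animal, the sex and the individual cannot be told apart.

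Tissues of the 2-year-old male were set against those of 4 months as values without a test. At least 2-fold differences were seen in 0 of the 71 genes in cerebellum, cortex, kidney and testis, where 2.76%, 1.73%, 2.08% and 5.47% of all genes differed as much. In hypothalamus UQCRH was lower (all genes 2.12%), in liver ATP5S was higher (4.72%), and in spleen NDUFA4 was higher and NDUFB2 lower (6.1%). In bone marrow COX7A1 and NDUFA4L2 were higher and UQCRH lower (21.7%). COX7A1 in marrow was 11.05 at 2 years, against 9.56 and 9.61 at 4 months, while the summed level of the muscle markers was 5.96, and NDUFA4L2 was 8.08 against 5.88 and 5.19 at 4 months. UQCRH, the hinge subunit of complex III, was lower at 2 years than at 4 months in each of the 8 tissues, by 0.61 in testis to 1.21 in hypothalamus. NDUFA4 in spleen was 4.73, against 2.89 to 3.29 in the 8 younger samples.

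The renal pelvis of the 2-year-old male, on 1 array, was close to its kidney for the 71 genes as a set. The median difference of the 71 genes was −0.02, with 0 genes at least 2-fold lower and 1 higher, against 10.1% of all genes in either direction. The gene that was higher was NDUFA4L2, at 8.43 against 4.61 ± 0.10 (SD, 8 technical repeats) in kidney. The SD of the technical repeats had a median of 0.046 over the 71 genes. Other single genes differed by more than their technical SD, such as COX6A2 by 0.82 (SD 0.04) and ATP5SL by −0.55 (SD 0.03). Of the 71 differences 40 were negative. The summed level of proximal tubule markers was 9.59 in the pelvis and 11.86 in the kidney of the same animal, that of thick limb and distal tubule markers was 12.19 and 12.09, and the 1 smooth muscle marker measured was at 13.73 and 11.20. The part of these cell types in the NDUFA4L2 value was not tested.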

How the data were processed

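The authors hybridized total RNA, labelled as Cy3 cRNA, to custom one-colour Agilent arrays and deposited the scanner output of each array, made with Agilent Feature Extraction 11.5.1.1 per the submitters' processing notes. The values used are the median pixel intensity of each spot, deposited as raw intensity without normalization between arrays. The deposited value table holds log2 values (49280 rows, each column with a median of 4.57); it correlated at 0.991 to 0.998 with the scanner's processed signal on the log2 scale, and it served as an alternative only. The study's methods name robust multi-array background correction, quantile normalization, averaging per gene and log2 transformation; which of these steps the table carries was not tested.

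Each array has 62976 spots, 61289 of them for genes. Flagged spots, between 10 and 590 an array, were left out. Background was corrected in limma 3.58.1 (R 4.3.3) with normexp (offset 0, 308 negative controls included), arrays were quantile normalized, and log2 values were averaged over spots and then over the probes of a gene. Of 23736 genes, 14 without an unflagged value on every array were dropped. "Well above background" is the scanner's own call, and a gene was given it on an array when any unflagged spot of any of its probes had it. A gene counted on all arrays may therefore hold a dim probe, as NDUFA6 does.

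Age, tissue and sex were tested with lmFit and eBayes as described with each result, with Benjamini-Hochberg adjustment over all 23722 genes and a threshold of 0.05. The steps were tested on simulated data. The array number limits the precision, with 1 sample per tissue, age and sex.

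The genes, marker lists and pathway lists were chosen with earlier results of these data known. Genes named are the tissue isoforms and paralogs, the complex II subunits, the 3 largest called differences in each direction per contrast (5 in the gonads), the 5 smallest p-values for unequal age differences, and those called between the sexes; pathway genes, genes of the 2-year and pelvis comparisons, and a few others (NDUFA8, COX7A2, ATP5E, SDHC) were picked from these tables after their values were seen. The replicate numbers were not used to pair samples. Alternatives changed the signal, offset, scaling, filter, probe summary, variance moderation, blocks, slide and samples; the use of probes without cross-hybridization and of the value table was added after seeing the data. Plots were made with matplotlib 3.10.9.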

Additional observations from a re-analysis of the deposited data

Results flagged for a closer look

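The age difference of 11 of the 71 genes was unequal between the 7 tissues in the moderated F test in limma, against 18.5% of all genes, so that the count is no result about these genes as a group. Each of the 11 is a difference between groups in the same contrast. The adjusted p-values were 0.000533 for NDUFC2, 0.00514 for NDUFS3, 0.00768 for NDUFA8, 0.0107 for NDUFB7, 0.019 for NDUFV2, 0.0194 for NDUFS8, 0.0222 for ATP5D, 0.0224 for NDUFA9, 0.0232 for COX7A2, 0.0296 for NDUFA6 and 0.0481 for COX5A. COX5A was lost under 45 of 65 alternatives, NDUFA6 under 7 of 66, NDUFS8 under 6, ATP5D under 3, COX7A2, NDUFB7 and NDUFV2 under 1 (slide as covariate) and NDUFA9 under 1 (median scaling). NDUFS8, a core subunit of complex I, was at −0.91 in bone marrow and 0.22 in liver. ATP5D, the delta subunit of ATP synthase, was at −0.43 in spleen and 0.36 in cerebellum. NDUFA9 was at −0.67 in kidney, −0.59 in spleen and −0.49 in bone marrow, and COX7A2 at −0.55 in bone marrow and −0.50 in spleen. COX5A was at −0.54 in bone marrow, −0.53 in kidney and −0.59 in spleen. NDUFA6, an accessory subunit of complex I, was at −1.33 in cortex and 1.09 in hypothalamus. This came from 1 of its 2 probes, which ran from 3.15 to 6.75 in young cortex and from 2.53 to 6.61 in older hypothalamus but from 1.75 to 2.52 in young cerebellum, whereas the other probe ran from 10.42 to 10.65 in young cortex and from 10.87 to 11.61 in older hypothalamus. The 2 probes correlated at 0.133 over the 56 samples.

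NDUFS3 in the 4 spleen samples of 2 and 4 months had its lowest value, 6.23 in the 2-month male, far from the others, which ran from 6.62 to 6.70. The gap was 0.839 of the range of the group. Of 28 groups of 4 tested, 1 had such a sample, and chance alone gives about 1 in 20.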

How the results depend on the processing

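The number called in either direction stayed within 1.5 times of that reported under every alternative run for each tissue against the others and for age in testis, but its split did not. With median scaling liver had 29 higher and 16 lower, cerebellum 13 and 20, hypothalamus 31 and 11 and bone marrow 9 and 44, and with the processed signal liver had 39 and 15. Without 1 week spleen had 6 higher, and without 4 months cortex had 8 lower. With median scaling and with the processed signal, in that order, the median difference of the 71 genes was 0.20 and 0.24 in liver, 0.23 and 0.19 in hypothalamus, 0.14 and 0.09 for age in liver, and 0.18 and 0.15 for age in ovary; it was −0.08 in cerebellum with median scaling. For age in hypothalamus it was 0.03 with an offset of 50 and 0 with the processed signal. In hypothalamus it was 0.35 without 1 week, 0.25 without 2 months and 0.27 without 4 months. Differences that changed sign, in the same order of scalings, were COX6A1 in cerebellum (−0.18, −0.17), in liver (0.12, 0.20) and in cortex (−0.01, processed signal), COX6B1 in liver (0.01, 0.07), COX7B in hypothalamus (−0.02, −0.08) and COX7B2 in hypothalamus (−0.12, processed signal), the last not well above background there.

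Genes called with age moved most. One fit over 7 tissues called 21 in bone marrow, 5 in cerebellum, 0 in cortex, 16 in kidney, 1 in liver and 16 in spleen, and with slide as covariate 17, 0 (cortex), 11 (kidney) and 10 (spleen). An offset of 50 called 8 in cerebellum, 9 in cortex, 8 in kidney and 8 in spleen. Median scaling called 0 in cortex, 1 in kidney and 6 in spleen, the filter on dim genes 3 in cerebellum and 5 in cortex, the variance trend 4 and 6, and the processed signal 0 in cortex. Probes without cross-hybridization called 0 in cortex, where the called genes ATP5F1 and NDUFA13 have no such probe and were absent from that setting. The authors' value table gave 1 in bone marrow, 4 in cortex, 4 in kidney and 7 in spleen. With the 2-year male, kidney and spleen had 1 each. The slide as covariate left 7 genes with unequal age differences. No gene was called between the sexes without 1 week. Apart from the absence of these genes in cortex without cross-hybridizing probes, why the counts moved was not tested.

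Leaving out single samples gave 0 to 23 calls with age in kidney, 0 to 4 in spleen, 0 to 2 in cortex, 0 to 4 in cerebellum, 0 to 1 in bone marrow, 29 to 33 in testis, 1 to 5 in ovary and 9 to 22 genes with unequal age differences, the last without the 4-month female kidney. The median for age in ovary ran from −0.09 to 0.14. Samples of the same age and sex did not deviate together across tissues (mean r −0.074 over 168 pairs, against −0.011 in other pairs). This cannot show whether they came from the same animal. With sex as a replicate block 0 genes were called with age in cortex and in kidney, and without the pair of tissue and age as block the sexes differed in 1. Low signal limits the 15 genes not detected on all arrays.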
